A study of Macaca mulatta with 12 samples.

Results

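The genes described here are the kinesin genes and the genes of the centromere proteins. They were chosen by symbol alone: every row of the deposited expression table whose symbol starts with KIF or KIFC and a number, or with CENP and a letter. That gave 55 of the 16745 genes in the table: 13 mitotic kinesins, 16 transport kinesins, 18 centromere proteins and 8 other rows. One of those rows, KIF1BP, names a kinesin-binding protein and not a kinesin, and it was the only one of the 55 symbols without a match in the reference gene list. KIF4A, KIF5C, KIF7 and CENPJ had no row in the table used here and so were not analysed.

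The samples are labelled as cardiomyocytes that were derived from induced pluripotent stem cells of the rhesus macaque (Macaca mulatta). Cells grew either as a flat layer (monolayer, 2D) or as engineered heart tissue (EHT, 3D), in both cases in RPMI medium with B27 supplement and insulin, and no genotype or transgene is labelled. Each format was kept in normoxia, or in hypoxia given as 24 hours in an anaerobic pouch with another 24 hours following renewal of the medium. That makes 4 groups of 3 libraries: monolayer normoxia, monolayer hypoxia, EHT normoxia and EHT hypoxia. The time of RNA extraction is not labelled, nor is any medium renewal for normoxia, so oxygen and medium cannot be told apart. Nothing says whether the libraries of a group came from separate differentiations or donors, so p-values measure the spread between these libraries, which may be technical.

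Kinesins are motor proteins that use ATP to work on microtubules. Mitotic kinesins build the spindle, move chromosomes and finish the division of the cell, and their genes are switched on in cycling cells around the time of division. Centromere proteins mark the place on a chromosome where the kinetochore forms, the plate that spindle microtubules attach to. Transport kinesins carry vesicles, organelles and RNA along microtubules in cells that need not divide, and several were first studied in neurons. Cardiomyocytes divide readily in early development and rarely once mature.

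Levels are given as normalised read counts: reads recovered from the deposited values and divided by a library factor (the median of ratios), so they compare libraries and not genes of different length. Differences are on a log2 scale, ± their standard error (SE), from limma across all 12046 genes that passed a filter on low values. A gene is called when its Benjamini-Hochberg adjusted p is 0.05 or less. Of the 55 genes, 48 were tested. The differences understate the change of genes with few reads, since the transformation flattens low values. Libraries held 4154346 to 11298841 reads. The deposited values carry library offsets, with medians over genes from 6.99 to 8.76, against 7.40 to 7.57 after rescaling. On deposited values the median difference of all genes was -0.66 for EHT against monolayer in normoxia, -0.47 for hypoxia in monolayer, 0.18 for hypoxia in EHT and 0.62 for the interaction. After rescaling these medians were -0.06, -0.07, 0.01 and 0.04.

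One library, EHT hypoxia replicate 3, stood apart from the other 2 of its group. Its summed normalised count over the 13 mitotic kinesins was 368, against 1073 and 992. Results for EHT hypoxia are therefore given with and without it. It was singled out by values of these same genes, so calls gained without it are no separate support for a rise. Of 7 cardiomyocyte markers in the table, summed counts ran from 2109 to 12907 in monolayer normoxia and from 32254 to 34351 in monolayer hypoxia. In EHT they were lower, 39.4 to 953 in normoxia and 114 to 4238 in hypoxia, and the ventricular light chain gene MYL2 had no read in any EHT library. The labelled cell type thus had low defining markers in EHT. Sums of 8 fibroblast markers ran from 85997 to 153123 in monolayer normoxia and from 214554 to 299236 over the other 3 groups. Gene by gene they went both ways. In normoxia 3 of the 8 were called higher in EHT and 1 lower, and after hypoxia in monolayer 4 were higher and 3 lower. Over all tested genes 19.2% were higher and 24.6% lower in the first comparison, and 24.0% each way in the second.

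**Figure D1:**
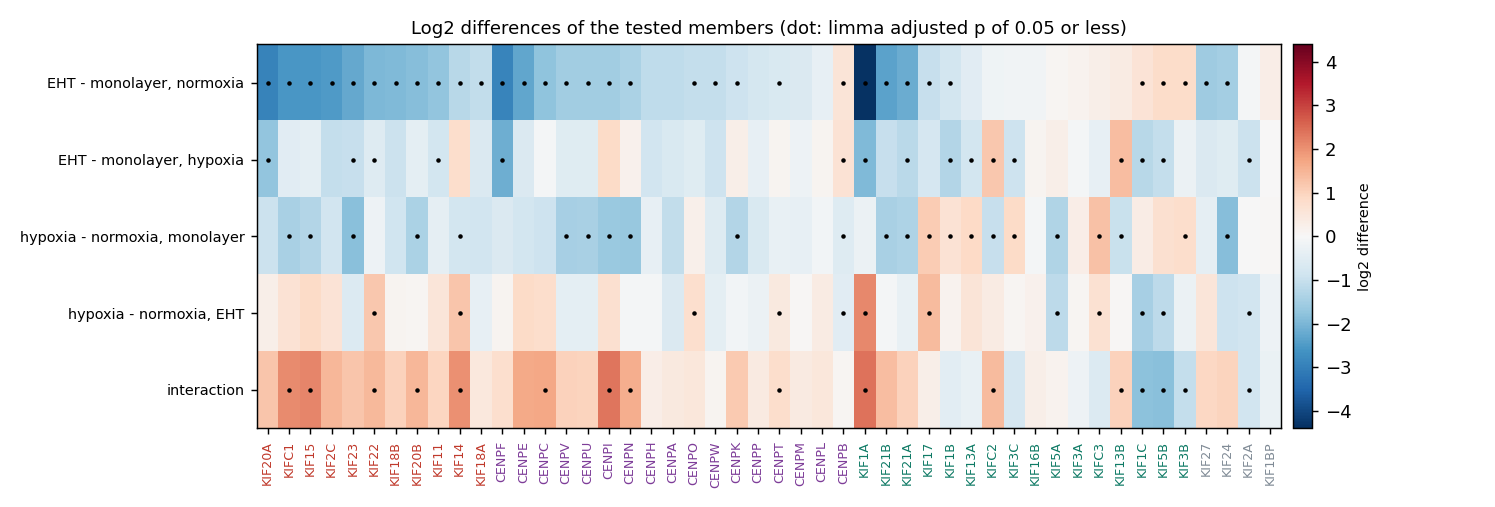
Log2 differences of the 48 tested genes (columns, coloured by class) in the 4 group comparisons and the interaction (rows), with a dot where limma's adjusted p was 0.05 or less. The 11 mitotic kinesins are all lower in EHT in normoxia, while the transport kinesins go both ways (on deposited values without rescaling, all of those called in that row are lower).

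In normoxia, 29 of the 48 tested genes were lower in EHT than in monolayer and 4 were higher. Over all tested genes, 24.6% were lower and 19.2% higher. All 11 mitotic kinesins tested fell, with a median difference of -1.97 against -0.06 for all genes. Of the 17 centromere protein genes tested, 11 fell and 1 rose, with a median of -1.11. Transport kinesins divided, with 5 of 16 lower, 3 higher and a median of -0.16. In bulk RNA, fewer dividing cells and less of each RNA per cell cannot be told apart.

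Among the mitotic kinesins that build the spindle, KIF11 slides antiparallel microtubules apart to separate the poles. Its counts were 157, 112 and 146 in monolayer normoxia, 100.4, 82.2 and 118 in monolayer hypoxia, 39.8, 15.9 and 42.8 in EHT normoxia and 46.6, 63.4 and 44.8 in EHT hypoxia. All 3 EHT normoxia libraries lay below all 6 monolayer libraries, and the difference in normoxia was -1.75 ± 0.27 (n = 3 per group, adjusted p = 2.42e-04). KIF15, which backs up KIF11 on the spindle, had counts of 169, 121 and 230.1 in monolayer normoxia, 75.6, 50.1 and 55.3 in monolayer hypoxia, 22.5, 6.72 and 27.7 in EHT normoxia and 56.2, 82.1 and 11.2 in EHT hypoxia. KIF15 was lower in EHT in normoxia by a log2 difference of -2.56 ± 0.45 (adjusted p = 6.84e-04). KIFC1, a minus-end motor that focuses spindle poles, had counts of 281, 309.5 and 356 in monolayer normoxia, 99.2, 84.9 and 139.7 in monolayer hypoxia, 34.6, 21.8 and 80.5 in EHT normoxia and 89.1, 88.3 and 42.9 in EHT hypoxia. For KIFC1 the monolayer normoxia libraries were the highest of the 12 and did not overlap any other group, with a difference of -2.57 ± 0.34 in EHT (adjusted p = 7.36e-05).

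The motors that move or hold chromosomes were lower in EHT as well. KIF22 binds chromosome arms and pushes them towards the middle of the spindle. Its counts were 268, 353 and 369 in monolayer normoxia, 280.2, 294 and 256 in monolayer hypoxia, 83.0, 58.8 and 76.3 in EHT normoxia and 212, 209 and 136 in EHT hypoxia. The EHT normoxia values of KIF22 were the 3 lowest of all 12, and the difference from monolayer was -1.97 ± 0.20 (adjusted p = 9.72e-06). KIF2C takes microtubules apart at the kinetochore and so corrects wrong attachments. It had counts of 227, 296 and 314 in monolayer normoxia, 140.1, 161 and 139.7 in monolayer hypoxia, 38.0, 24.3 and 53.7 in EHT normoxia and 160.3, 163 and 3.73 in EHT hypoxia. For KIF2C, EHT hypoxia replicate 3 was the lowest library of all, while the other 2 libraries of its group reached the level of monolayer hypoxia. The difference in normoxia was -2.49 ± 0.69 (adjusted p = 0.0109). KIF18A and KIF18B, which shorten microtubule ends, differed by -1.10 ± 0.34 and -1.95 ± 0.42 (adjusted p = 0.0213 and 0.00234). KIF18B was a low gene, with counts of 35.6, 44.1 and 52.2 in monolayer normoxia and 6.92, 2.52 and 1.68 in EHT normoxia. The KIF18A call was lost in refits that left out monolayer normoxia 3 or EHT normoxia 1 (adjusted p 0.0689 to 0.0810).

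The motors of the central spindle and of cell separation include KIF20A, whose difference was the largest of the 11. KIF20A brings the chromosomal passenger complex to the midzone. Its counts were 496, 559 and 695 in monolayer normoxia, 335, 263 and 286 in monolayer hypoxia, 76.1, 47.0 and 67.1 in EHT normoxia and 145, 131 and 20.5 in EHT hypoxia. In normoxia KIF20A averaged 583 ± 102 in monolayer and 63.4 ± 14.9 in EHT (SD, n = 3), a log2 difference of -2.94 ± 0.44 (adjusted p = 1.95e-04). KIF23 is a subunit of centralspindlin, which bundles the midzone, and its counts were 536, 386 and 531 in monolayer normoxia, 145, 100.1 and 124 in monolayer hypoxia, 91.7, 54.6 and 137 in EHT normoxia and 86.3, 69.6 and 22.4 in EHT hypoxia. Its monolayer normoxia values stood far above all other groups, and the difference was -2.25 ± 0.36 (adjusted p = 3.29e-04). KIF20B, a midzone motor, differed by -1.86 ± 0.33 (adjusted p = 6.91e-04). KIF14, which works at the midbody, had counts of 71.7, 65.7 and 58.6 in monolayer normoxia, 34.7, 34.9 and 26.1 in monolayer hypoxia, 24.2, 15.1 and 21.8 in EHT normoxia and 78.1, 99.5 and 31.7 in EHT hypoxia. It differed by -1.23 ± 0.31 in normoxia (adjusted p = 0.00601), and its highest values were 2 of the EHT hypoxia libraries.

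**Figure D2:**
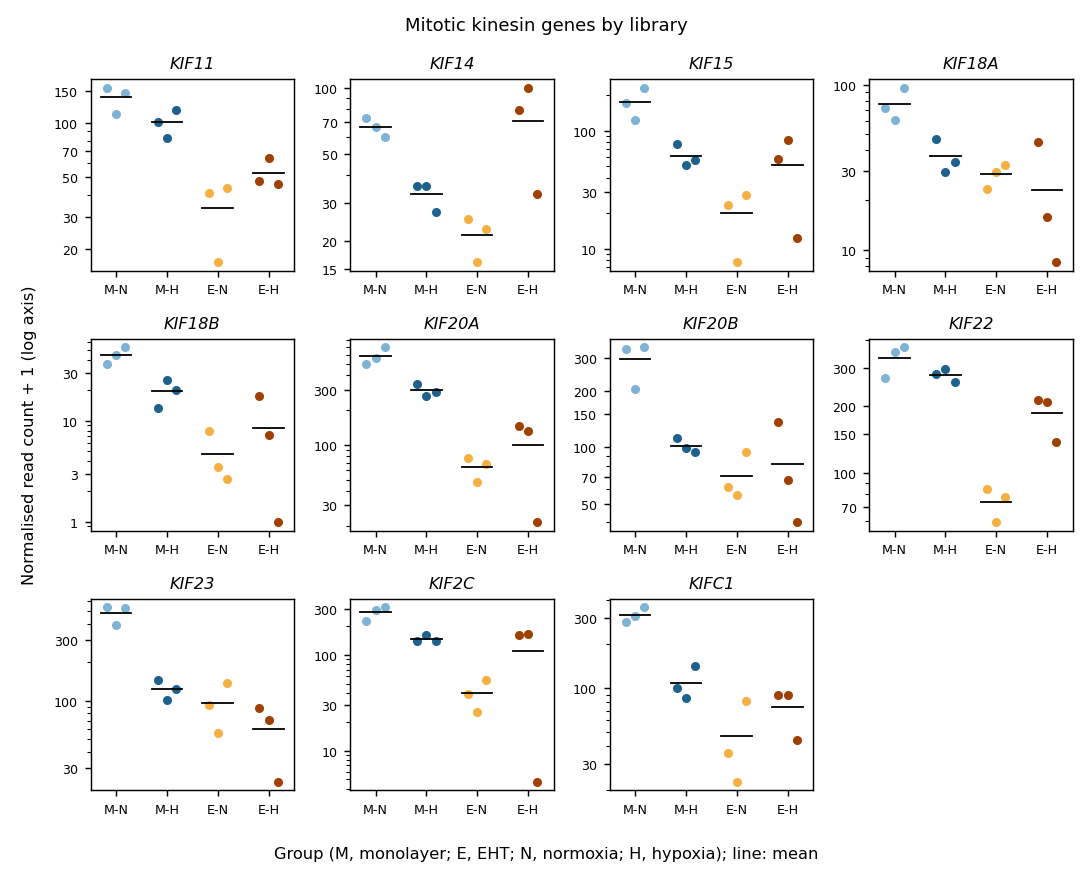
Normalised read count plus 1 (log axis) of the 11 tested mitotic kinesins in each of the 12 libraries, with a line at the group mean. In each panel all 3 EHT normoxia points lie below the 3 monolayer normoxia points, and in all 11 the lowest EHT hypoxia point is replicate 3.

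The order monolayer normoxia, monolayer hypoxia, EHT hypoxia, EHT normoxia, from the highest group mean to the lowest, was seen in 8 of the 11. Summed over all 13 genes, counts were 2520 to 3199, 1224 to 1383 and 334 to 635 in monolayer normoxia, monolayer hypoxia and EHT normoxia. Those 3 ranges do not overlap, but EHT hypoxia, at 368 to 1073, overlapped EHT normoxia. Group means of markers of another cell type had the same order as the means of these sums. The 4 epithelial markers in the table (EPCAM, CDH1, CLDN4, KRT18) summed to 1819 to 2840 in monolayer normoxia, 193 to 353 in monolayer hypoxia, 48.7 to 79.6 in EHT normoxia and 82.1 to 179 in EHT hypoxia. Within groups these sums did not always go with the mitotic kinesin sums. Monolayer normoxia replicate 3 had the lowest epithelial sum of its group and the highest mitotic kinesin sum. EHT hypoxia replicates 1 and 3 had epithelial sums of 83.6 and 82.1 and mitotic kinesin sums of 1073 and 368. EPCAM had no read in EHT normoxia replicate 1. In normoxia 3 of the 4 epithelial markers were lower in EHT, against 24.6% of all tested genes. In each library 2 or 3 of the 3 pluripotency markers had no read, so their sum is the count of at most 1 gene. These sums were low, 30.5 to 122 in monolayer normoxia and 3.01 to 11.2 in monolayer hypoxia. In EHT they were 0 to 1.68 in normoxia and 0 to 38.6 in hypoxia. The 1 pluripotency marker tested was called lower in EHT in normoxia (-3.10) and after hypoxia in monolayer (-2.07). The part of the epithelial markers or of the pluripotency marker in the mitotic kinesin result was not tested.

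In hypoxia, 13 of the 48 genes were lower in EHT than in monolayer and 3 were higher, against 22.3% and 17.9% of all tested genes. The 11 mitotic kinesins had a median difference of -0.62, against -0.06 for all genes, and 4 of them were lower: KIF20A (-1.73 ± 0.44, adjusted p = 0.00793), KIF23 (-1.01 ± 0.36, 0.0403), KIF11 (-0.79 ± 0.27, 0.0324) and KIF22 (-0.56 ± 0.20, 0.0385). When EHT hypoxia replicate 3 was left out, KIF20A was the only one of these still called, KIF14 was higher in EHT by 1.16 (adjusted p = 0.00209), and the 48 genes divided into 11 lower and 6 higher, against 21.4% and 18.3% of all tested genes in that refit. With voom on the recovered reads 1 of the 11 was called, and after median centring 2, all lower. Over all tested genes 15.5% were higher and 19.8% lower with voom, and 18.6% and 19.5% after centring. The KIF11 call was also lost without monolayer hypoxia replicate 1 or 3 or EHT hypoxia replicate 1. The KIF22 call was lost without any of the 3 monolayer hypoxia libraries. The KIF23 call was lost without any of 7 libraries, namely monolayer normoxia 1 and 3, all 3 of monolayer hypoxia, EHT normoxia 1 and EHT hypoxia 3. Over those refits the adjusted p ran from 0.0501 to 0.134.

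After hypoxia in monolayer, 17 of the 48 genes were lower and 6 higher. Over all tested genes 24.0% were lower and 24.0% higher. All 11 mitotic kinesins had a negative difference, with a median of -0.86 against -0.07 for all genes, and 5 were called. KIF23 differed by -1.85 ± 0.36 (adjusted p = 0.0011). KIFC1 differed by -1.44 ± 0.34 (adjusted p = 0.00379) and KIF20B by -1.38 ± 0.33 (0.00432). KIF15 differed by -1.30 ± 0.45 (0.0312) and KIF14 by -0.80 ± 0.31 (0.0465). The KIF15 call was lost without monolayer normoxia 1 or 3 or monolayer hypoxia 2 or 3 (adjusted p 0.0707 to 0.109). The KIF14 call was lost without any of 9 libraries, which are all except the 3 of EHT hypoxia (adjusted p 0.0519 to 0.134). The spread is shared over the 4 groups, and without EHT hypoxia replicate 3 it gave 9 mitotic kinesins lower in this comparison, and 25 of the 48 genes lower with 7 higher. In that refit 27.7% of all tested genes were lower and 26.8% higher. With voom 7 of the 11 were called, on the deposited values 8 and after median centring 3. All of these were lower, against 25.3%, 19.8% and 18.8% of all tested genes. On the deposited values 4.4% of all tested genes were higher.

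After hypoxia in EHT, 7 of the 48 genes were higher and 5 lower, against 19.5% and 18.6% of all tested genes. Of the mitotic kinesins 2 rose, KIF14 by 1.21 ± 0.31 (adjusted p = 0.00774) and KIF22 by 1.18 ± 0.20 (5.86e-04). For both, all 3 EHT hypoxia libraries lay above all 3 EHT normoxia libraries. With EHT hypoxia replicate 3 left out, 6 of the 11 rose, with KIF2C at 1.77 (adjusted p = 7.16e-05), KIF15 at 1.42 (0.0048), KIF20A at 0.98 (0.00167) and KIFC1 at 0.91 (0.0197), and the 48 genes divided into 16 higher and 6 lower. Calls rose over all tested genes too, to 24.7% higher and 21.4% lower. The library left out was the lowest of its group in all 11, so that refit favours higher calls among them. The EHT libraries numbered 2 and 3 deviated most like those of their own number, and those numbered 1 did not. With that number as a block in a fit to the 6 EHT libraries the 48 genes gave 4 higher and 3 lower. Over all tested genes that fit gave 13.4% higher and 11.8% lower. In that blocked fit KIF14 missed the threshold (adjusted p = 0.0657) and KIF22 kept its call.

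The interaction asks whether the response to hypoxia differed between EHT and monolayer, as the EHT response minus the monolayer response. It was positive and called for 12 of the 48 genes and negative and called for 4, against 13.5% and 13.4% of all tested genes. All 11 mitotic kinesins were positive, with a median of 1.41 against 0.04 for all genes, and 5 were called. KIF15 had 2.13 ± 0.64 (adjusted p = 0.0272), KIFC1 2.07 ± 0.48 (0.00755) and KIF14 2.01 ± 0.43 (0.00495). KIF20B had 1.45 ± 0.47 (0.0371) and KIF22 1.41 ± 0.28 (0.00312). For all 5 the difference after hypoxia was negative in monolayer and positive in EHT, but only KIF14 was called in both. KIF22 was called in EHT alone, and KIF15, KIFC1 and KIF20B in monolayer alone. The call was lost for KIF15 without any of 6 libraries (monolayer normoxia 3, monolayer hypoxia 2 and 3, EHT normoxia 2, EHT hypoxia 1 and 2). For KIF20B it was lost without any of 9 (all but monolayer normoxia 2, EHT normoxia 3 and EHT hypoxia 3). Those adjusted p ran from 0.0556 to 0.0856. Without EHT hypoxia replicate 3, 9 mitotic kinesins were called, and 21 of the 48 genes positive with 4 negative, against 18.4% and 16.8% of all tested genes. With voom 4 of the 11 were called and after median centring 3. All of these were positive, against 11.8% and 10.4% of all tested genes. Of the 4 epithelial markers 3 were positive and called and 1 was negative and called. The 1 pluripotency marker tested was positive and called (3.33), with summed pluripotency counts of only 0 to 1.68 in EHT normoxia. The part of these markers was not tested.

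**Figure D3:**
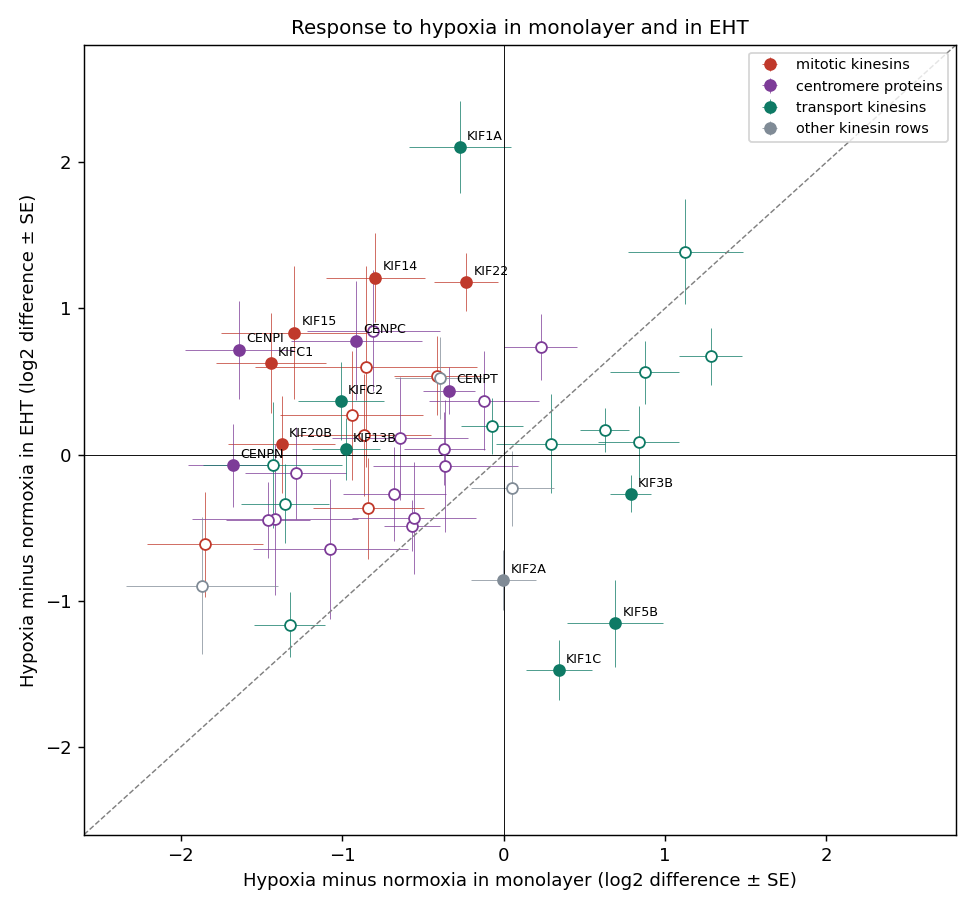
Log2 difference of hypoxia minus normoxia in EHT (vertical axis) against that in monolayer (horizontal axis) for the 48 tested genes, with bars of ± 1 SE. Filled, labelled points are the 16 with a called interaction, and the dashed line marks equal responses. All tested mitotic kinesins and centromere protein genes lie above the line (after median centring 16 of the 17 centromere protein genes, after quantile normalization 13), and KIF1C, KIF5B, KIF3B and KIF2A lie below it.

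The centromere protein genes were lower in EHT with 1 exception among those called, CENPB. CENPA is the histone H3 variant that defines the centromere. Its counts were 53.9, 49.3 and 55.0 in monolayer normoxia, 13.6, 29.5 and 14.1 in monolayer hypoxia, 32.9, 10.9 and 13.4 in EHT normoxia and 15.1, 21.1 and 0 in EHT hypoxia. Monolayer normoxia was highest without overlap, but the difference of -1.11 ± 0.48 in EHT in normoxia missed the threshold (adjusted p = 0.0784). It was called without EHT hypoxia replicate 3, which has no CENPA read (adjusted p = 0.00742). CENPC links the CENPA nucleosome to the outer kinetochore. It had counts of 228, 275 and 331 in monolayer normoxia, 133, 147 and 138 in monolayer hypoxia, 69.2, 63.8 and 74.7 in EHT normoxia and 218, 209 and 42.9 in EHT hypoxia. CENPC was lower in EHT in normoxia by a difference of -1.78 ± 0.41 (adjusted p = 0.00349). In EHT hypoxia 2 libraries stood above all 3 EHT normoxia libraries and replicate 3 stood below them.

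The outer kinetochore genes held the largest centromere protein differences. CENPE, a motor that carries chromosomes along microtubules, had counts of 219, 197 and 334 in monolayer normoxia, 144, 117 and 139 in monolayer hypoxia, 34.6, 23.5 and 63.8 in EHT normoxia and 151, 101 and 29.9 in EHT hypoxia. It differed by -2.30 ± 0.41 in EHT in normoxia (adjusted p = 7.59e-04). CENPF, a large microtubule-binding protein of the outer kinetochore, had counts of 1017, 774 and 942 in monolayer normoxia, 639.8, 528 and 562 in monolayer hypoxia, 107, 74.7 and 151 in EHT normoxia and 230.2, 159 and 39.2 in EHT hypoxia. All 6 EHT libraries of CENPF lay below all 6 monolayer libraries, and CENPF was the only centromere protein gene lower in EHT in both oxygen conditions (-2.91 ± 0.42, adjusted p = 1.44e-04 in normoxia, and -2.16 ± 0.42, 0.00158 in hypoxia). Whether these 2 differences are unequal was tested by the interaction, 0.75 ± 0.59 (adjusted p = 0.379).

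The inner kinetochore genes, most of whose products sit in the constitutive centromere-associated network, went the same way in normoxia. CENPI (-1.52 ± 0.33, adjusted p = 0.00289), CENPN (-1.40 ± 0.28, 0.0016), CENPU (-1.52 ± 0.52, 0.0299) and CENPO (-1.04 ± 0.23, 0.00275) were lower in EHT, as were CENPT, CENPK and CENPW. CENPV, which takes part in organising the spindle midzone, was also lower (-1.54 ± 0.26, 4.89e-04). CENPH, CENPL, CENPM and CENPP had differences from -1.11 to -0.36 and missed the threshold. Calls were lost for CENPK without monolayer normoxia 1 or 3 or EHT normoxia 2 or 3, for CENPU without monolayer normoxia 1 or 3 or EHT normoxia 1 or 2, and for CENPW without any of 9 libraries (all but EHT normoxia 3 and EHT hypoxia 2 and 3). Those adjusted p ran from 0.0501 to 0.160.

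CENPB stood apart from its class. It binds the CENP-B box of centromeric satellite DNA, and its counts were 335, 331 and 424 in monolayer normoxia, 250.5, 195 and 278 in monolayer hypoxia, 574, 475 and 584 in EHT normoxia and 312, 409 and 437 in EHT hypoxia. It was higher in EHT in normoxia (0.57 ± 0.18, adjusted p = 0.0197) and in hypoxia (0.65 ± 0.18, 0.0109), with no overlap between the groups compared. It was lower after hypoxia in monolayer (-0.57 ± 0.18, 0.0173) and in EHT (-0.49 ± 0.18, 0.0432). Each of the 4 calls was lost in refits without 1 library. In normoxia these were monolayer normoxia 1 or 2 or EHT normoxia 1 or 3, and in hypoxia monolayer hypoxia 2. For hypoxia in monolayer they were monolayer normoxia 3 or monolayer hypoxia 2. For hypoxia in EHT they were monolayer normoxia 2, monolayer hypoxia 1, EHT normoxia 1 or 3 or EHT hypoxia 1 or 2. Over those refits the adjusted p ran from 0.0509 to 0.161. On the deposited values without rescaling none of the 4 calls held, and the normoxia difference turned to -0.09.

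**Figure D4:**
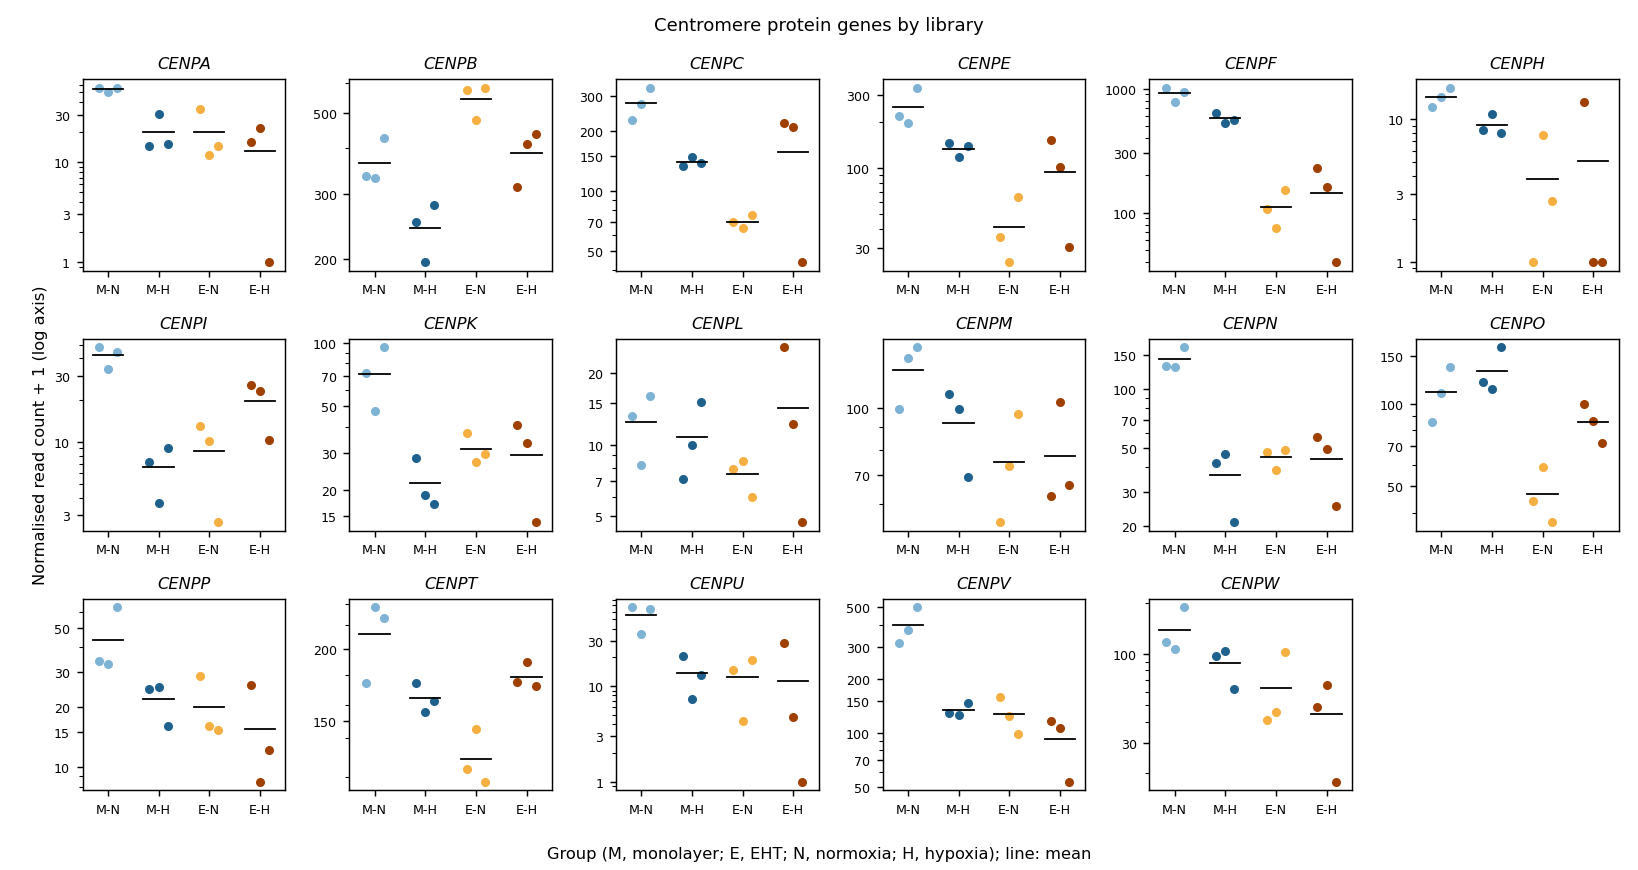
Normalised read count plus 1 (log axis) of the 17 tested centromere protein genes in each of the 12 libraries, with a line at the group mean. Monolayer normoxia is the highest group in most panels. CENPB is highest in EHT normoxia.

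In hypoxia only CENPB and CENPF of the 17 were called between EHT and monolayer. Over all tested genes 17.9% were higher and 22.3% lower. Without EHT hypoxia replicate 3 there were 3 higher and 1 lower, against 18.3% and 21.4% of all tested genes. In that refit CENPC turned from -0.09 to 0.57 (adjusted p = 0.0236). After hypoxia in monolayer 6 of the 17 were lower: CENPN (-1.68 ± 0.28, adjusted p = 3.90e-04), CENPI (-1.64 ± 0.33, 0.00149), CENPV (-1.46 ± 0.26, 6.05e-04), CENPU (-1.42 ± 0.52, 0.0371), CENPK (-1.29 ± 0.31, 0.00452) and CENPB. Over all tested genes 24.0% were lower. Leaving out EHT hypoxia replicate 3 gave 10 lower (27.7% of all tested genes), and median centring gave 4 (18.8%). The CENPU call was lost without monolayer normoxia 1 or 3 or monolayer hypoxia 2 or 3 (adjusted p 0.0814 to 0.128).

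After hypoxia in EHT, CENPO (0.73 ± 0.23, adjusted p = 0.0224) and CENPT (0.44 ± 0.16, 0.0455) were higher and CENPB lower. That is 2 and 1 of 17, against 19.5% higher and 18.6% lower over all tested genes. With the replicate block in EHT none of these 3 was called (adjusted p 0.0902, 0.148 and 0.0927). The CENPO call was also lost without EHT normoxia 1 or 3 or EHT hypoxia 1 or 2, and the CENPT call without any library except monolayer normoxia 1 and EHT hypoxia 3 (adjusted p 0.0501 to 0.121). Without EHT hypoxia replicate 3, 6 centromere protein genes were higher and 1 lower, against 24.7% and 21.4% of all tested genes. Among the 6 were CENPC at 1.44 (adjusted p = 4.33e-05), CENPE at 1.40 (0.00246), CENPI at 0.97 (0.0315) and CENPF at 0.76 (0.0181).

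The interaction was positive for all 17 (16 after median centring and 13 after quantile normalization) and called for 4, with a median of 0.75. Over all tested genes 13.5% were positive and called. CENPI holds the largest value. Its counts were 46.8, 32.3 and 43.6 in monolayer normoxia, 6.20, 2.68 and 8.04 in monolayer hypoxia, 12.1, 9.23 and 1.68 in EHT normoxia and 24.7, 22.4 and 9.33 in EHT hypoxia, and the interaction was 2.36 ± 0.47 (adjusted p = 0.00331). Monolayer counts of CENPI fell below 10 in hypoxia, while 2 of the 3 EHT hypoxia libraries exceeded all EHT normoxia libraries. CENPN had 1.60 ± 0.40 (0.0108), CENPC 1.69 ± 0.57 (0.0446) and CENPT 0.77 ± 0.23 (0.0234). CENPE had 1.65 ± 0.58 (0.0525), which missed the threshold, and was called without EHT normoxia 3 or EHT hypoxia 3. The CENPC call held in the refit without EHT hypoxia replicate 3 and was lost without any 1 of the other 11 libraries (adjusted p 0.0529 to 0.105). The CENPT call was lost without monolayer normoxia 2 or 3, monolayer hypoxia 2 or EHT normoxia 1 (adjusted p 0.0526 to 0.0588). Without EHT hypoxia replicate 3, 8 were called, all positive, against 18.4% of all tested genes.

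Partners of these genes on the spindle and at the kinetochore were counted beside them. Of 37 tested, 32 were lower in EHT in normoxia, with a median of -1.86, against 24.6% lower over all tested genes. CDCA8 and AURKB, of the chromosomal passenger complex, differed by -2.37 ± 0.24 and -2.49 ± 0.31 (adjusted p = 1.04e-05 and 4.28e-05), and the checkpoint kinase gene BUB1 by -2.89 ± 0.32 (1.94e-05). In hypoxia 12 were lower in EHT and 1 higher, against 22.3% and 17.9% of all tested genes. After hypoxia 20 of 37 were lower in monolayer, against 24.0%. In EHT 5 were higher and 2 lower, against 19.5% and 18.6%. Without EHT hypoxia replicate 3 these were 14 and 3, against 24.7% and 21.4%. With the replicate block in EHT 1 was called, and it was lower, against 13.4% higher and 11.8% lower over all tested genes. The interaction was called for 9, all positive (13.5% of all tested genes), and for 25 without EHT hypoxia replicate 3 (18.4%). AURKB had the smallest p there, with 2.20 ± 0.43 (adjusted p = 0.00304).

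Across the 12 libraries the mitotic kinesins moved together. Over their 55 pairs the median Pearson r was 0.84, from 0.32 to 0.96. Over the 136 pairs of centromere protein genes it was 0.61, from -0.78 to 0.93, and over the 120 pairs of transport kinesins 0.01, from -0.85 to 0.88. These are descriptions over the same 12 libraries, which share groups and depth. With the mean of the partner genes, r was highest for KIF20A at 0.97 and KIF15 at 0.96, and lowest among the mitotic kinesins for KIF14 at 0.58. CENPB had -0.38. Some genes outside the mitotic class came close to it: KIF21A at 0.83, KIF24 at 0.83, KIF21B at 0.81 and KIF1A at 0.74.

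Transport kinesins did not move as a class. KIF1A, which carries synaptic vesicle precursors in neurons, had the largest difference of all 48 genes. Its counts were 2135, 1207 and 727 in monolayer normoxia, 1001, 951 and 1118 in monolayer hypoxia, 55.3, 52.9 and 35.2 in EHT normoxia and 222, 353 and 202 in EHT hypoxia. No EHT library reached any monolayer library, and EHT hypoxia stood above EHT normoxia without overlap. KIF1A was lower in EHT by -4.33 ± 0.31 in normoxia (adjusted p = 8.90e-07) and -1.96 ± 0.31 in hypoxia (4.52e-04). It rose with hypoxia in EHT (2.11 ± 0.31, 2.56e-04) while in monolayer the difference of -0.27 ± 0.31 missed the threshold (0.505), and the interaction was 2.38 ± 0.45 (0.00224). Of 9 neuronal markers in the table, summed counts ran from 1401 to 2530 in monolayer normoxia, 1334 to 1466 in monolayer hypoxia, 1522 to 1790 in EHT normoxia and 1129 to 1291 in EHT hypoxia. In normoxia, 2 of the 8 tested neuronal markers were higher in EHT and 3 lower, against 19.2% and 24.6% of all tested genes. Their part in the KIF1A result was not tested.

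KIF5B, the heavy chain of the widely expressed conventional kinesin, moved the other way. Its counts were 1966, 1343 and 1393 in monolayer normoxia, 2379, 2628 and 2512 in monolayer hypoxia, 3265, 2997 and 2040.1 in EHT normoxia and 967, 838 and 2178 in EHT hypoxia. EHT hypoxia replicates 1 and 2 were the lowest libraries of the 12, while replicate 3 lay among the EHT normoxia values. KIF5B was higher in EHT in normoxia (0.81 ± 0.30, adjusted p = 0.0421) and lower in hypoxia (-1.04 ± 0.30, 0.0142). It fell with hypoxia in EHT (-1.15 ± 0.30, 0.0085), and the interaction was -1.85 ± 0.42 (0.00673). The normoxia call was lost without any of 7 libraries (monolayer normoxia 2 and 3, the 3 of monolayer hypoxia, EHT normoxia 1 and 2, adjusted p 0.0567 to 0.137). The hypoxia call was lost without EHT hypoxia 1 or 2 (0.0534 to 0.0625). KIF5B missed the threshold with the EHT block (adjusted p = 0.0705).

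KIF1C, which carries vesicles and integrins, had a like pattern. Its counts were 1148, 1045 and 701 in monolayer normoxia, 1220.1, 1183 and 1201 in monolayer hypoxia, 1549.6, 1413 and 1325 in EHT normoxia and 436, 413 and 705 in EHT hypoxia. The EHT normoxia libraries were the 3 highest and 2 of the EHT hypoxia libraries the lowest. The difference in EHT was 0.59 ± 0.21 in normoxia (adjusted p = 0.0343) and -1.23 ± 0.21 in hypoxia (5.73e-04). Hypoxia in EHT lowered it by a difference of -1.48 ± 0.21 (1.55e-04), and the interaction was -1.82 ± 0.29 (8.76e-04). The normoxia call was lost without monolayer normoxia 3 or EHT normoxia 1 or 2 (adjusted p 0.0746 to 0.153). KIF3B, a subunit of the kinesin-2 motor that serves cilia, had counts of 477, 408 and 343 in monolayer normoxia, 712, 715 and 706 in monolayer hypoxia, 749, 701 and 716 in EHT normoxia and 589, 568 and 635 in EHT hypoxia. For KIF3B monolayer normoxia was the lowest group without overlap. It was higher in EHT in normoxia (0.81 ± 0.13, adjusted p = 2.65e-04) and after hypoxia in monolayer (0.79 ± 0.13, 2.72e-04), with an interaction of -1.05 ± 0.18 (0.00124).

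These 3 rises in EHT depend on the scaling. On the deposited values KIF1C differed by -0.08, KIF3B by 0.15 and KIF5B by 0.14 in normoxia, and none was called. There, all 33 kinesin and centromere protein genes called were lower, against 327 higher and 3060 lower over all genes and 2312 and 2961 after rescaling.

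**Figure D5:**
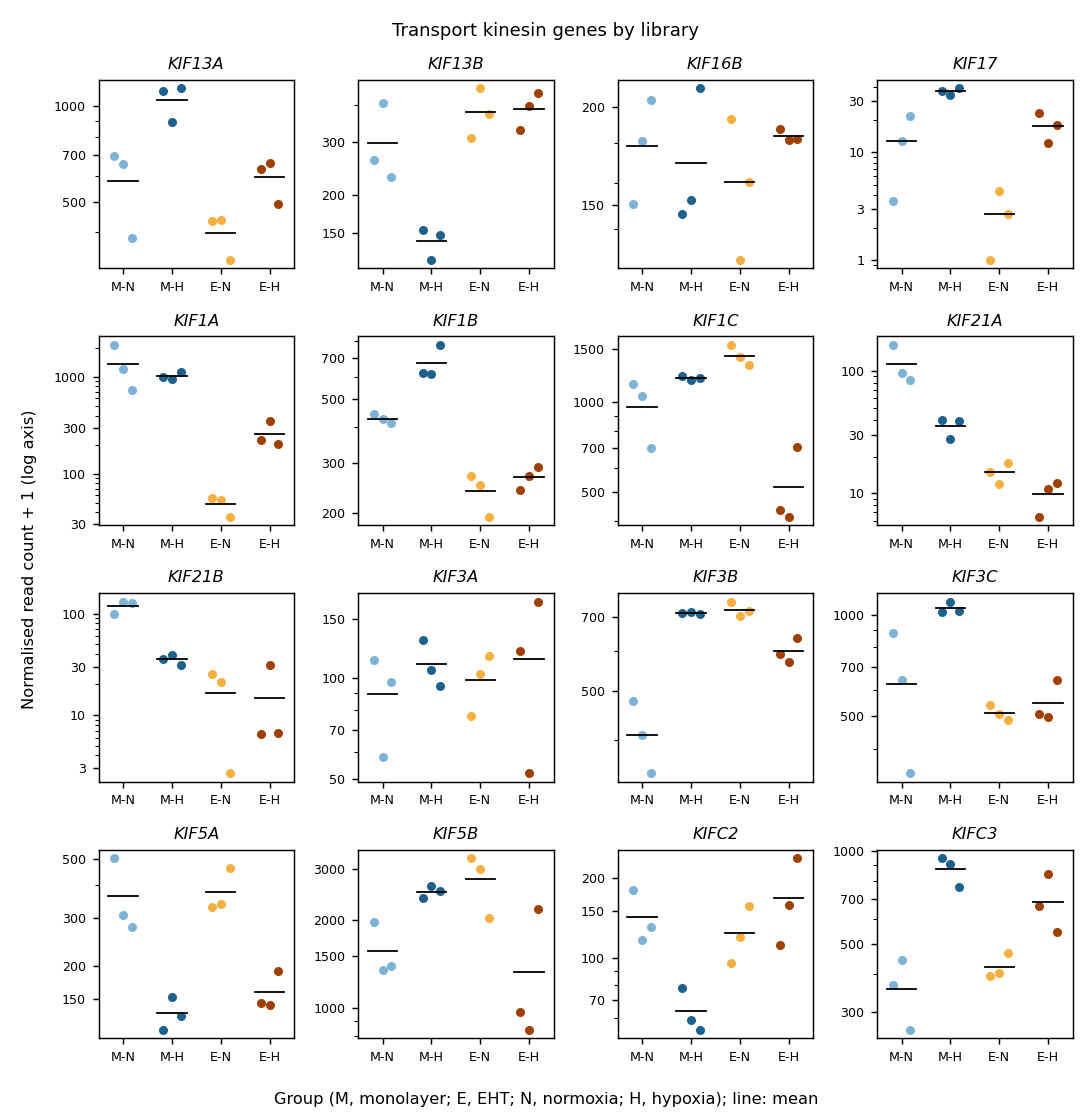
Normalised read count plus 1 (log axis) of the 16 transport kinesins in each of the 12 libraries, with a line at the group mean. KIF1A, KIF21A and KIF21B are lowest in EHT, KIF13A, KIF1B, KIF3C and KIFC3 peak in monolayer hypoxia, and KIF1C and KIF5B peak in EHT normoxia.

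KIF21A and KIF21B, which slow microtubule growth, were lower in EHT in normoxia (-2.19 ± 0.27, adjusted p = 4.59e-05, and -2.37 ± 0.43, 8.14e-04) and lower after hypoxia in monolayer (-1.35 ± 0.27, 0.00133, and -1.43 ± 0.43, 0.0152). KIF21A counts were 161, 95.5 and 83.6 in monolayer normoxia, 38.4, 26.8 and 38.2 in monolayer hypoxia, 13.8, 10.9 and 16.8 in EHT normoxia and 5.48, 9.95 and 11.2 in EHT hypoxia. Its 3 monolayer normoxia values stood above all others. KIF21A was lower in EHT in hypoxia too (-1.17 ± 0.27, 0.00459). KIF1B, a carrier of mitochondria and synaptic vesicle precursors, was lower in EHT in normoxia (-0.82 ± 0.15, 8.54e-04) and in hypoxia (-1.28 ± 0.15, 5.74e-05), and rose with hypoxia in monolayer (0.63 ± 0.15, 0.00429). KIF17, a kinesin-2 motor of dendrites and cilia, had low counts of 2.54, 11.8 and 20.7 in monolayer normoxia, 36.0, 33.1 and 38.2 in monolayer hypoxia, 0, 3.36 and 1.68 in EHT normoxia and 21.9, 11.2 and 16.8 in EHT hypoxia. It was higher after hypoxia in both formats (1.13 ± 0.36, 0.0201 in monolayer and 1.39 ± 0.36, 0.00889 in EHT) without overlap. In EHT in normoxia it was lower (-1.0045 ± 0.36, 0.0376), where 1 monolayer library overlapped EHT. The EHT block gave it an adjusted p of 0.0515 for hypoxia in EHT. Calls of KIF17 were lost without any of 7 libraries in normoxia (all but monolayer normoxia 1, EHT normoxia 2 and the 3 of EHT hypoxia), and without monolayer normoxia 1 or monolayer hypoxia 1 or 3 for hypoxia in monolayer (adjusted p 0.0517 to 0.163).

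A further set peaked in monolayer hypoxia. KIFC3, a minus-end motor of cell junctions, rose with hypoxia in monolayer (1.28 ± 0.19, adjusted p = 1.83e-04) and in EHT (0.67 ± 0.19, 0.0161). Its counts were 365, 441 and 262 in monolayer normoxia, 947, 909 and 765 in monolayer hypoxia, 391, 400.4 and 464 in EHT normoxia and 664, 841 and 547 in EHT hypoxia. Hypoxia groups and normoxia groups of KIFC3 did not overlap. KIF13A, a carrier of endosomes, rose in monolayer (0.87 ± 0.22, 0.00502). In EHT KIF13A had 0.56 ± 0.22 (0.0557), which was called with the EHT block (adjusted p = 0.034). KIF3C, a neuronal kinesin-2 subunit, rose in monolayer (0.84 ± 0.25, 0.0146). In hypoxia KIF13A and KIF3C were lower in EHT than in monolayer (-0.80 ± 0.22 and -0.92 ± 0.25). The KIFC3 call in EHT was lost without EHT normoxia 1 or 2 or EHT hypoxia 2 (adjusted p 0.0520 to 0.0748).

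Others fell with hypoxia in monolayer. KIF5A, a neuronal form of conventional kinesin, fell in both formats. Its counts were 502, 308 and 279 in monolayer normoxia, 114, 152 and 129 in monolayer hypoxia, 330.3, 337 and 461 in EHT normoxia and 144, 142 and 190.4 in EHT hypoxia. The differences were -1.33 ± 0.22 in monolayer (adjusted p = 3.86e-04) and -1.16 ± 0.22 in EHT (0.00144), and the groups did not overlap. KIF13B (-0.98 ± 0.21, 0.00213) and KIFC2 (-1.01 ± 0.27, 0.00765) fell in monolayer and had 0.04 ± 0.21 and 0.37 ± 0.27 in EHT, which missed the threshold. Both were higher in EHT than in monolayer in hypoxia (1.37 ± 0.21 and 1.19 ± 0.27), and both interactions were called (1.01 ± 0.30, 0.0239, and 1.38 ± 0.38, 0.0176). The KIF13B interaction was lost without monolayer hypoxia 2 or EHT normoxia 1 (adjusted p 0.0630 to 0.0637). KIF3A, the partner of KIF3B in kinesin-2, and KIF16B, a motor of early endosomes, missed the threshold in all 5 comparisons, with differences from -0.21 to 0.29 for KIF3A and from -0.15 to 0.27 for KIF16B.

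In total 6 transport kinesins were higher after hypoxia in monolayer and 5 lower, and in EHT 3 were higher and 3 lower, a share near that of all tested genes (19.5% higher and 18.6% lower). In monolayer that share was 24.0% in each direction. In hypoxia, 7 were lower in EHT than in monolayer and 2 higher (22.3% and 17.9% of all tested genes), and the interaction was called for 3 in each direction (13.5% and 13.4%). On deposited values all 22 kinesin and centromere protein genes called after hypoxia in monolayer were lower, against 535 higher and 2388 lower over all genes. In EHT the 2 called were higher (all genes 856 higher and 268 lower), and for the interaction the 11 called were positive (1116 positive and 102 negative). In the interaction, KIF1C, KIF5B, KIF3B and KIF2A thus lost their calls on deposited values, with differences of -1.15, -1.17, -0.40 and -0.19.

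Of the other rows, KIF2A, a microtubule depolymerase of spindle poles and of neurons, fell with hypoxia in EHT (-0.86 ± 0.20, adjusted p = 0.00537). Its counts were 411, 293 and 401 in monolayer normoxia, 352, 413 and 331 in monolayer hypoxia, 287, 343 and 407 in EHT normoxia and 152, 160.4 and 246 in EHT hypoxia. The EHT hypoxia libraries were the 3 lowest. It was lower in EHT in hypoxia (-0.94 ± 0.20, 0.00294) and its interaction was -0.86 ± 0.29 (0.0429), a call lost without any of 9 libraries, namely all except monolayer normoxia 1, EHT normoxia 1 and EHT hypoxia 3 (adjusted p 0.0532 to 0.107). KIF24, which restrains cilium formation at the centriole, was lower in EHT in normoxia (-1.49 ± 0.47, 0.0214) and after hypoxia in monolayer (-1.87 ± 0.47, 0.00563). KIF24 counts were 99.7, 100.1 and 101 in monolayer normoxia, 14.9, 14.3 and 25.1 in monolayer hypoxia, 29.4, 21.8 and 29.4 in EHT normoxia and 19.2, 26.1 and 0 in EHT hypoxia. Its 3 monolayer normoxia values stood alone. The KIF24 call in normoxia was lost without monolayer normoxia 2 or 3 or EHT normoxia 2 (adjusted p 0.0532 to 0.0647). KIF27, a relative of the Hedgehog regulator KIF7, was lower in EHT in normoxia (-1.56 ± 0.28, 7.05e-04). KIF1BP missed the threshold in all 5 comparisons, with differences from -0.28 to 0.31. With EHT hypoxia replicate 3 left out, KIF1BP was lower after hypoxia in EHT (-0.59, adjusted p = 0.0163).

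Under the filter on low values lay 7 genes, which were not tested. KIF2B and CENPQ had no read in any library. KIF4B had 61 reads over the 12 libraries, KIF12 102, KIF19 97, KIF6 98 and KIF25 26. KIF4B is a near-identical copy of KIF4A, so reads of this pair may have been divided or dropped in counting. KIF4A itself had no row in the table used here. KIF19 had no read in any of the 6 EHT libraries and a read in each monolayer library.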

How the data were processed

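Per the labels, an Ion Total RNA-Seq kit was used and sequencing was on an Ion Proton. HISAT2, featureCounts and DESeq2 are named in the submitters' processing notes. Their versions, the genome build and its genes were not given in the sources used here. The authors deposited 1 table of log2 values, variance-stabilised. Inverting the transformation returned whole reads (tolerance 0.01) for 100% of values in every library. Each library's deposited scaling factor was 0.415 to 1.43 times the median-of-ratios factor of the same reads, so the reads were rescaled by the latter and transformed again in the same way.

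Genes entered the test if their mean exceeded the table's floor by 1 log2 unit or more. They were fitted with limma 3.58.1 in R 4.3.3 (1 mean per group, 12 libraries, mean-variance trend, Benjamini-Hochberg over 12046 genes, threshold 0.05). The step was also tested on simulated data. Standard errors of group comparisons ran from 0.0993 to 1.72. Prior degrees of freedom were 4.82, and infinite on the deposited values. No interval from counting was used. Of 55 symbols, 54 matched the reference gene list. Figures used matplotlib 3.10.9.

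The members, classes, partner genes and markers were chosen with earlier results of these data known. Genes named are the mitotic kinesins, a fixed set, the 6 largest called differences in each direction of each comparison, every transport or other kinesin called, every gene with a called interaction, and every gene under the filter; some further centromere protein genes and all partner genes are examples. Same-numbered libraries were checked for pairing by the correlation of their deviations from group means: 0.115, 0.250 and 0.307 for hypoxia and normoxia in EHT, each over 0.1, and not all over 0.1 in the other 3 comparisons. In EHT the libraries numbered 2 and 3 were each other's best match by number, and those numbered 1 were not. The number alone, with no label behind it, is the source of that pairing. Alternatives were the deposited values, median centring, quantile normalization, voom on the reads, other filters and variance models, fits to the compared groups, the replicate block and leaving out each library. The block fitted to EHT alone was added after seeing the data.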

Additional observations from a re-analysis of the deposited data

Results flagged for a closer look

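For 16 genes the response to hypoxia differed between EHT and monolayer by limma's test of the interaction (response in EHT minus response in monolayer, log2). Of the 48 tested, 12 were positive and called and 4 negative and called, against 13.5% and 13.4% of all tested genes. The mitotic kinesins among the 16 were KIF14 (2.01), KIF15 (2.13), KIF20B (1.45), KIF22 (1.41) and KIFC1 (2.07). The centromere protein genes were CENPC (1.69), CENPI (2.36), CENPN (1.60) and CENPT (0.77). Among the transport kinesins KIF13B (1.01), KIF1A (2.38) and KIFC2 (1.38) were positive, and KIF1C (-1.82), KIF3B (-1.05) and KIF5B (-1.85) negative. KIF2A had -0.86.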

How the results depend on the processing

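The 3 libraries of a group limit every call, and for EHT hypoxia 1 library decides many. Leaving out each library in turn gave 26 to 36 genes called of 48 for EHT against monolayer in normoxia and 13 to 19 in hypoxia, 19 to 32 for hypoxia in monolayer, 8 to 22 for hypoxia in EHT and 10 to 25 for the interaction. Calls over all tested genes moved too. For hypoxia in EHT they went from 19.5% higher and 18.6% lower to 24.7% and 21.4% without EHT hypoxia replicate 3. Without both EHT libraries numbered 3 the counts were 20 for hypoxia in EHT and 28 for the interaction. Over all tested genes that refit gave 24.6% higher and 21.6% lower for hypoxia in EHT. For the interaction it gave 19.3% positive and 17.9% negative. The deposited values gave 4 called for EHT against monolayer in hypoxia and 2 for hypoxia in EHT. Over all tested genes they gave 5.0% higher and 7.8% lower in the first, and 7.1% and 2.2% in the second. Quantile normalization gave 5 higher and 12 lower for EHT against monolayer in hypoxia, against 19.3% and 18.9% of all tested genes. Median centring divided all genes into 2751 higher and 2214 lower for EHT against monolayer in normoxia, and 3345 and 2263 for hypoxia in monolayer. Fits to the 6 EHT libraries gave 7 for hypoxia in EHT without a block and 7 with the replicate block. With that block 13.4% of all tested genes were higher and 11.8% lower. In the fit to 12 libraries the replicate block gave 31, 15, 23, 12 and 15 for the 5 comparisons in the order of the report, against 33, 16, 23, 12 and 16. That block gave 18.9% higher and 24.4% lower over all tested genes for EHT against monolayer in normoxia, and 13.1% and 13.0% for the interaction. It ended the calls of CENPW (adjusted p = 0.0626) and KIF5B (0.0546) in EHT against monolayer in normoxia, KIF22 (0.0552) in hypoxia, CENPT (0.0597) for hypoxia in EHT and the CENPC interaction (0.052), and it added KIF13A (0.0335) for hypoxia in EHT. Direction turned for CENPB (-0.0891) and KIF1C (-0.0770) in EHT against monolayer in normoxia on deposited values, and for CENPC in hypoxia without both EHT libraries numbered 3 (0.57). Leaving out each library gave CENPC a range of -0.44 to 0.57 there, the highest without EHT hypoxia replicate 3. The cause was not tested.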

Other observations

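Of 9 tested adaptors, which tie transport kinesins to their cargo, 4 were higher in EHT in normoxia and 1 was lower, with a median of 0.38. Over all tested genes 19.2% were higher and 24.6% lower. On the deposited values the 1 called was lower, 8 of the 9 differences were negative and the median was -0.26. There, 2.7% of all tested genes were higher and 25.4% lower. TRAK2, which links conventional kinesin to mitochondria, differed by 1.18 ± 0.19 (adjusted p = 3.60e-04), and MAPK8IP1, a scaffold for conventional kinesin, by 0.64 ± 0.14 (0.00226). Both calls were lost on the deposited values, where TRAK2 had 0.52 (adjusted p = 0.424) and MAPK8IP1 -0.0061 (0.994). KLC3, a kinesin light chain, averaged 125 normalised counts in monolayer normoxia and 5.41 in monolayer hypoxia, and had no read in EHT normoxia. Its interaction was called (3.27 ± 0.47, 4.85e-04). With no read in EHT normoxia, KLC3 could not fall with hypoxia in EHT, so its interaction cannot tell a different response from this floor.

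Among 12 regulators of cell cycle transcription, 4 were lower in EHT in normoxia and 2 higher, against 24.6% and 19.2% of all tested genes. The list was mixed, with a median of -0.18, 8 negative and 4 positive differences. The genes named here are examples. FOXM1, an activator of mitotic genes, averaged 258 in monolayer normoxia, 97.9 in monolayer hypoxia, 38.7 in EHT normoxia and 36.6 in EHT hypoxia. MYBL2, which acts with it, averaged 524, 171, 100.1 and 69.0 in the same order. CDKN1A, an inhibitor of cell cycle kinases, averaged 2022, 7948, 9349 and 5585. It was higher in EHT in normoxia (2.24 ± 0.25, 2.35e-05) and after hypoxia in monolayer (2.02 ± 0.25, 4.40e-05), and lower after hypoxia in EHT (-0.77 ± 0.25, 0.0297). That last call of CDKN1A was lost on the deposited values (-0.56, adjusted p = 0.555), with the replicate block in EHT (0.0795) and in the fit to the EHT libraries without a block (0.0601). It was also lost without EHT normoxia 1 or 2 or EHT hypoxia 1 or 2 (0.0723 to 0.125).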
